A study of Mus musculus with 12 samples.

Results

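The comparison described here is the effect of docetaxel on 4T1 cells labelled as integrin beta 3 knockouts, measured across all genes. It rests on 6 of the 12 RNA-seq libraries of the series, chosen by their labels: 3 cultures given docetaxel and 3 given DMSO, the drug's solvent. Docetaxel was used at 10 nM for 24 h, and the cells then had 48 h in fresh medium without drug before harvest. The other 6 libraries are wild-type 4T1 cells under the same treatments, 3 per group, and serve as the reference for how far the response is shared. 4T1 is a mammary carcinoma line of BALB/c mice, labelled triple-negative. All 12 cultures grew on plastic coated with poly-L-lysine, in medium with 10% serum, and the labels call the 3 cultures of a group biological replicates. How the knockout was made, and whether it is 1 clone, is not stated in the sources used here. For the first wild-type DMSO library the title and genotype say wild type while its free-text description names the knockout, and it was used as wild type.

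Docetaxel binds beta tubulin and stabilises microtubules, so that cells are held in mitosis and may leave it without dividing properly. DNA that is left outside the main nucleus can be recognised by cytosolic sensors such as cGAS, and double-stranded RNA by the RIG-I-like receptors. Such sensors act through IRF and NF-kB transcription factors, which switch on interferons, interferon-stimulated genes and inflammatory cytokines. Integrin beta 3 pairs with the alpha v or the alpha IIb subunit to form receptors for vitronectin, fibronectin and fibrinogen. These statements are background, not results.

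The label was checked on the targeted transcript first. Itgb3, which encodes integrin beta 3 (GRCm38 chr11:104608000-104670476), was at 62.4, 66.7 and 65.0 counts-per-million (CPM) in the 3 knockout-labelled DMSO libraries. With docetaxel it was at 59.3, 64.6 and 63.4 CPM (log2 fold change -0.05 ± 0.08 (SE), edgeR adjusted p = 0.725). Its transcript was therefore present at like levels in all 6 libraries, the 3 wild-type DMSO libraries being at 71.4, 60.1 and 66.1 CPM. In wild-type cells it rose with docetaxel, to 80.6, 88.7 and 79.98 CPM (log2 fold change 0.34 ± 0.08 (SE), edgeR adjusted p = 0.00856), and the difference of the responses did not pass (edgeR adjusted p = 0.294). Reads summed over a gene cannot show a small edit. With docetaxel each knockout-labelled library was below each wild-type library. Because the transcript was at like levels in both genotypes with DMSO, the cells are called knockout-labelled. Of its partners, Itgav was at 213, 239 and 236 CPM with DMSO and 261, 233 and 243 CPM with docetaxel (edgeR adjusted p = 0.478), and Itga2b stayed at or under 2.88 CPM in each of the 6 libraries.

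The 6 libraries held 30947099 to 40801679 counts, with 20149 to 20531 genes detected after DMSO and 21069 to 22648 after docetaxel. The first principal component of the 6 libraries held 52.3% of the variance and placed the groups apart. The predicted gene Gm26917 took 9.06% to 9.33% of counts with DMSO and 7.37%, 11.9% and 9.48% with docetaxel. Another, Gm23935, took 0.137% to 0.177% of counts with DMSO and 0.856%, 0.293% and 1.51% with docetaxel. Of the 8 epithelial genes listed for the line, Krt7, Krt8, Krt18, Epcam and Cdh1 were at or above 400.2 CPM in each library. With Krt14, Cldn4 and Elf3, the 8 summed to 4185 to 4388 CPM with DMSO and 3209 to 4259 CPM with docetaxel. Of the receptor transcripts that bear on the triple-negative label, Erbb2 was at 117, 124 and 121 CPM and Esr1 at 28.8, 28.9 and 31.1 CPM with DMSO. Pgr had 1 count in all 6 libraries together. These are RNA levels, and receptor protein was not measured. Of 11 macrophage and leukocyte markers 4 were expressed highly enough to be tested, and the summed level of the 11 ran from 32.8 to 44.8 CPM with DMSO and from 57.0 to 66.5 CPM with docetaxel. Cd14, a co-receptor for lipopolysaccharide, was the marker called higher (15.8, 18.01 and 17.7 CPM against 33.8, 33.8 and 35.0 CPM). Ptprc, the pan-leukocyte antigen CD45, had 4 counts over the 3 DMSO and 14 over the 3 docetaxel libraries. Ncr1, of natural killer cells, had none in either group, and the macrophage markers Adgre1 and Lyz2 had none with docetaxel. Mrc1, another macrophage marker, had 1, 0 and 0 counts with DMSO and 4, 8 and 2 with docetaxel, and Itgam, of myeloid cells, 1, 3 and 0 against 7, 0 and 4. The part of such cells in the results was not tested. The 9 fibroblast and endothelial markers summed to 13.9 to 17.0 CPM and 11.4 to 14.7 CPM. In bulk RNA, fewer cells of a kind and less RNA per cell cannot be told apart.

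Of 15538 genes tested, 1412 rose with docetaxel (9.09%) and 1087 fell (7.0%) (edgeR quasi-likelihood test, adjusted p under 0.05). The increases were larger. Their median log2 fold change was 0.61, against -0.51 for the decreases, and 485 genes rose at least 2-fold (3.12%) while 112 fell as far (0.721%). Genes with a mean under 1 CPM made 201 of the higher and 31 of the lower calls. With a filter of at least 1 CPM in 3 libraries, 357 genes rose at least 2-fold and 91 fell as far. The 3 docetaxel values lay entirely above the 3 DMSO values in 2982 genes (19.2%) and entirely below in 2880 (18.5%). Higher genes made 56.5% of the calls, but 45.3% with upper-quartile scaling, which called 1184 higher and 1429 lower. The number of calls also depended on single libraries. It fell to 800 higher and 511 lower without DMSO library 2, to 869 and 589 without DMSO library 3, to 905 and 595 without docetaxel library 3, and the lower calls to 649 without docetaxel library 1.

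Among called protein-coding genes without overlap and with a mean of at least 5 CPM in the higher group, the 12 largest increases included epithelial, inflammatory and antiviral genes. Genes under that level reached larger fitted fold changes, most of them from 0 counts with DMSO. Ehf, an ETS-family transcription factor of epithelia (chr2:103263433-103303278), was at 0.128, 0.130 and 0.118 CPM with DMSO and at 7.40, 4.55 and 4.50 CPM with docetaxel (log2 fold change 5.42 ± 0.32 (SE), edgeR adjusted p = 2.16e-07). Acod1, the enzyme that makes itaconate, went from 0.703, 0.326 and 0.294 CPM to 11.7, 12.8 and 12.6 CPM (log2 fold change 4.81 ± 0.28 (SE), edgeR adjusted p = 1.81e-07). In both genes every docetaxel library stood more than 10-fold above every DMSO library. The secreted chitinase-like protein Chil1 was at 2.62, 3.29 and 2.497 CPM and then at 70.3, 65.1 and 60.2 CPM (log2 fold change 4.54 ± 0.17 (SE), edgeR adjusted p = 1.14e-09). Nos2, the inducible nitric oxide synthase (chr11:78920787-78960254), rose from 3.17, 6.42 and 5.96 CPM to 83.0, 135 and 129 CPM (log2 fold change 4.48 ± 0.33 (SE), edgeR adjusted p = 1.22e-06). Nos2 was lowest in the first library of each group, and the groups were still far apart. Pou2f2, a POU-domain transcription factor best known in B cells, was at 0.352, 0.749 and 0.441 CPM and 6.46, 6.94 and 7.17 CPM (log2 fold change 3.73 ± 0.25 (SE), edgeR adjusted p = 4.91e-07). Alpl, the tissue-nonspecific alkaline phosphatase, reached 6.07, 8.75 and 8.02 CPM from 0.256, 1.30 and 0.617 CPM, and Cldn1, a tight-junction claudin, 5.23, 4.43 and 7.08 CPM from 0.288, 0.456 and 0.911 CPM, both without overlap between the groups. The remaining members of the leading 12, namely Ccl2, Ccl20, Ifi27l2a, Oas2 and Il1a, belong to the groups described below.

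At that level the largest decreases were smaller. Ankrd37, a gene induced by hypoxia, was at 8.98, 9.05 and 10.1 CPM with DMSO and 1.94, 1.47 and 1.98 CPM with docetaxel (log2 fold change -2.38 ± 0.19 (SE), edgeR adjusted p = 1.76e-06). Ace, which encodes angiotensin-converting enzyme, fell from 83.4, 85.1 and 82.6 CPM to 28.9, 25.6 and 26.5 CPM (log2 fold change -1.63 ± 0.10 (SE), edgeR adjusted p = 2.48e-07) with little spread in either group. Aldoc, an aldolase of glycolysis, fell from 78.9, 116 and 97.7 CPM to 19.7, 34.7 and 33.3 CPM (log2 fold change -1.74 ± 0.23 (SE), edgeR adjusted p = 0.000163). Notch3, a Notch receptor, went from 53.04, 63.3 and 60.6 CPM to 21.99, 23.1 and 21.96 CPM (log2 fold change -1.40 ± 0.12 (SE), edgeR adjusted p = 2.32e-06), and Ephb6, an ephrin receptor without kinase activity, from 37.5, 46.2 and 35.8 CPM to 12.6, 14.1 and 16.1 CPM (log2 fold change -1.48 ± 0.17 (SE), edgeR adjusted p = 4.47e-05). The other members of the lowest 12 were Add2, Smtnl2, Lman1l, Arhgef15, Krt15, 2810408A11Rik and Krt13, with log2 fold changes from -1.95 (Add2) to -1.47 (Krt13).

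**Figure D1:**
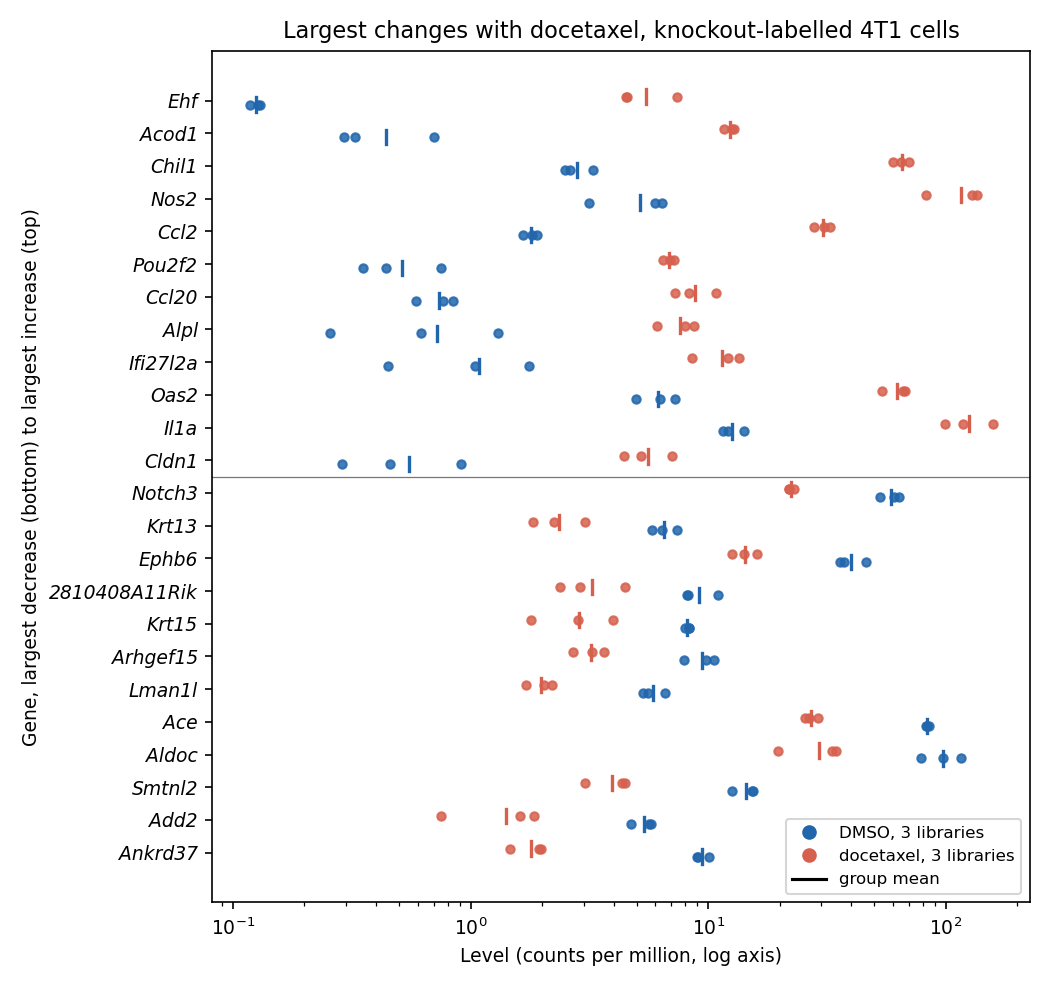
Levels of the 12 protein-coding genes with the largest increases (upper part) and the 12 with the largest decreases (lower part) among called genes without overlap and with a mean of at least 5 CPM in the higher group, in CPM on a log axis, 1 point per library and a short line at each group mean. Docetaxel points (red) lie right of the DMSO points (blue) for the upper 12, up to a log2 fold change of 5.42 for Ehf, and left of them for the lower 12, down to -2.38 for Ankrd37, which are the patterns these genes were chosen for.

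Genes were then read by function, in lists of known members. Of the 71 tested members of the interferon response list 64 rose, none fell and 7 did not pass, against 9.09% rising among all genes tested. The median log2 fold change of the list was 1.68, where that of all tested genes was 0.00, and 53 members rose at least 2-fold. Summed over the list, the level was 2004 to 2640.3 CPM in the DMSO libraries and 5445 to 6302 CPM in the docetaxel libraries. Leaving out any of the 6 libraries left 62 to 64 members called.

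**Figure D2:**
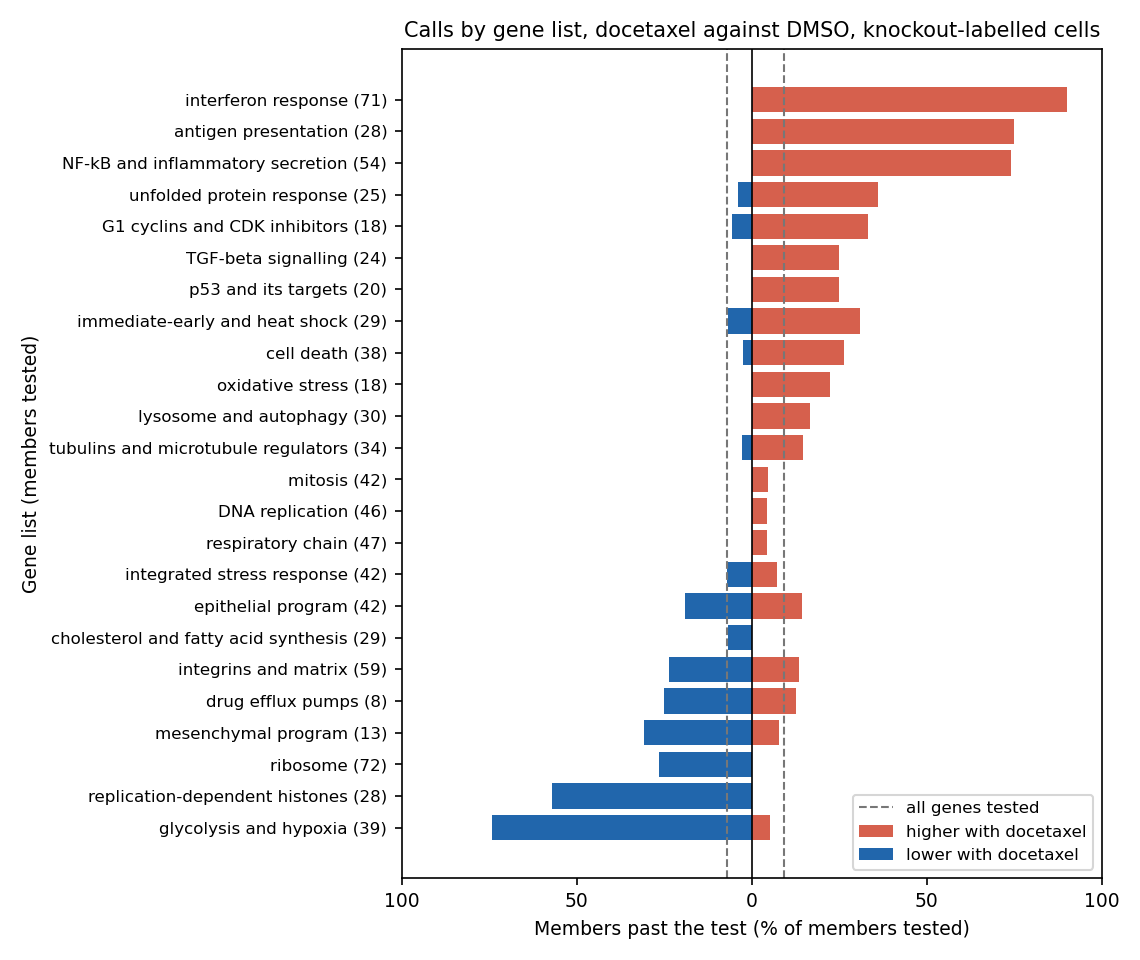
Share of the tested members of each gene list that passed edgeR's test, higher with docetaxel to the right (red) and lower to the left (blue), with the number of members tested in brackets. Dashed lines mark the shares among all tested genes, 9.09% higher and 7.0% lower. The interferon, antigen presentation and NF-kB lists extend furthest right, glycolysis and hypoxia furthest left.

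Among the 11 sensors and adaptors, 9 rose. Zbp1, a sensor of left-handed nucleic acids, was at 6.11, 11.6 and 9.34 CPM with DMSO and 41.4, 53.5 and 58.6 CPM with docetaxel (log2 fold change 2.51 ± 0.24 (SE), edgeR adjusted p = 1.03e-05). Dhx58, the LGP2 member of the RIG-I-like receptors, went from 7.51, 13.1 and 10.8 CPM to 31.7, 39.9 and 40.3 CPM (log2 fold change 1.83 ± 0.20 (SE), edgeR adjusted p = 4.07e-05). The signalling members of that family, Ddx58 (RIG-I) and Ifih1 (MDA5), rose by 0.96 and 1.101 on the log2 scale. Cgas, which makes the second messenger cGAMP from cytosolic DNA, rose less, from 16.5, 13.7 and 15.7 CPM to 21.7, 21.9 and 21.5 CPM (log2 fold change 0.50 ± 0.13 (SE), edgeR adjusted p = 0.0204). Its groups did not overlap, but the call was lost without DMSO library 2, DMSO library 3 or docetaxel library 3. The adaptors downstream did not pass: Tmem173, which encodes STING, was at 35.6, 38.5 and 37.8 against 40.4, 32.5 and 39.6 CPM (edgeR adjusted p = 0.97), and Mavs at 69.2, 74.7 and 77.9 against 68.0, 63.7 and 72.5 CPM (edgeR adjusted p = 0.391).

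Transcripts of the interferons themselves were scarce. Ifnb1, which encodes interferon beta, had 2, 4 and 0 counts in the DMSO libraries and 2, 4 and 8 in the docetaxel libraries. Ifnl2, an interferon lambda gene, had 1 count over the DMSO and 7 over the docetaxel libraries, and neither could be tested. Of the receptor chains, Ifnar2 rose from 26.4, 29.6 and 26.0 CPM to 41.2, 58.7 and 50.1 CPM (log2 fold change 0.87 ± 0.19 (SE), edgeR adjusted p = 0.00629) and Ifngr2 from 57.1, 57.9 and 58.6 CPM to 85.7, 77.7 and 81.1 CPM (log2 fold change 0.49 ± 0.09 (SE), edgeR adjusted p = 0.0015), while Ifnar1 (log2 fold change -0.05) and Ifngr1 (0.16) did not pass.

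Of the 8 transcription factors 6 rose. Irf7, which amplifies interferon production, was at 25.9, 41.7 and 30.7 CPM and 112, 183 and 161 CPM (log2 fold change 2.21 ± 0.24 (SE), edgeR adjusted p = 3.28e-05). Stat2, which carries the interferon signal to the nucleus, rose by 1.18 on the log2 scale, and its DNA-binding partner Irf9 by 0.60. The nuclear body protein Sp100 rose from 10.8, 14.1 and 13.9 CPM to 56.3, 67.3 and 62.3 CPM (log2 fold change 2.26 ± 0.15 (SE), edgeR adjusted p = 3.43e-07). Irf3, which is activated by phosphorylation, was at 34.1, 30.8 and 29.2 against 23.1, 27.8 and 25.5 CPM and did not pass (edgeR adjusted p = 0.18), nor did Irf1 at 106, 133 and 129 against 120.1, 179 and 161 CPM (edgeR adjusted p = 0.189).

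The effectors moved almost as a block. Of 13 OAS and IFIT genes 12 rose. Oas2, an antiviral oligoadenylate synthetase (chr5:120730333-120749853), was at 4.96, 7.23 and 6.29 CPM with DMSO and 53.8, 66.0 and 67.7 CPM with docetaxel (log2 fold change 3.34 ± 0.24 (SE), edgeR adjusted p = 8.16e-07). Oasl1 went from 29.6, 43.6 and 34.8 CPM to 161, 211 and 193 CPM (log2 fold change 2.39 ± 0.17 (SE), edgeR adjusted p = 9.91e-07), and Ifit1, which binds foreign RNA ends, from 20.9, 27.6 and 30.6 CPM to 97.5, 86.1 and 91.2 CPM (log2 fold change 1.80 ± 0.14 (SE), edgeR adjusted p = 1.46e-06). Oas1a and Oas1g, near-identical neighbours whose reads the counting may split, rose by 2.19 and 2.03. All 12 interferon-inducible GTPases tested rose, with log2 fold changes from 1.12 (Irgm1) to 2.46 (Gbp3). Gbp3, a guanylate-binding protein, was at 11.6, 15.5 and 15.7 CPM and 71.7, 85.4 and 79.1 CPM (log2 fold change 2.46 ± 0.15 (SE), edgeR adjusted p = 2.78e-07).

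All 23 other effectors tested rose as well, from 0.68 for Slfn2 to 3.37 for Ifi27l2a. Trim30a, a TRIM protein, went from 7.16, 8.83 and 9.46 CPM to 51.4, 51.5 and 59.2 CPM (log2 fold change 2.67 ± 0.18 (SE), edgeR adjusted p = 3.69e-07) and Ifi44 from 13.6, 24.6 and 22.5 CPM to 125, 124 and 134 CPM (log2 fold change 2.66 ± 0.21 (SE), edgeR adjusted p = 1.57e-06). Rsad2, which encodes the antiviral enzyme viperin, was at 27.4, 43.0 and 42.6 CPM and 149.7, 195 and 198 CPM (log2 fold change 2.26 ± 0.21 (SE), edgeR adjusted p = 6.17e-06), and the ubiquitin-like modifier Isg15 at 37.2, 49.9 and 43.0 CPM and 114, 215 and 168 CPM (log2 fold change 1.93 ± 0.26 (SE), edgeR adjusted p = 0.000171). The groups did not overlap in any of these 4 genes, nor in 37.7% of all tested genes. DMSO library 1 had the lowest value of the 6 libraries for each of them and for Oas2.

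The sequence recognised by the factor that interferon activates, the interferon-stimulated response element (ISRE), was looked for upstream of these genes because they moved together. The search used the letters GAAA, any 2 bases and GAAA again, or on the opposite strand TTTC, any 2 bases and TTTC, in the 250 bases before each start of the RefSeq promoter table (GRCm38.p6). A match was present in 20 of the 52 list members with an entry (38.5%) and in 3.46% of all 27025 genes with an entry. The motif was chosen with the list in view, so the share describes the list, and a match is not evidence of binding. Below are 30-base windows for the 8 called members with a match and the largest changes, 5′ to 3′ on the gene's own strand, with matches in capitals. They include Trim30a and Gbp3, of the 3 with the largest changes among called members with a promoter entry and a mean of at least 5 CPM. For the other of these, Ifi44, these letters are not in the window searched.
Trim30a: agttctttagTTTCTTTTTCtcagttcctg
Gbp3: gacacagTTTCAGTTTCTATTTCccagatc
Rsad2: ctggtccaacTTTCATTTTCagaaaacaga
Oas1a: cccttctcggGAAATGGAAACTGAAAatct
Oas1g: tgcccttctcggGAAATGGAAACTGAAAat
Isg15: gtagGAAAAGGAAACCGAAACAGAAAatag
Tgtp2: tccaggaatcGAAACCGAAAcctactctga
Tgtp1: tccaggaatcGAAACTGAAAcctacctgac
Trim30a lies on the minus strand (chr7:104465210-104465239), as do Oas1a (chr5:120907526-120907555), Isg15 (chr4:156200871-156200900), Rsad2 (chr12:26456553-26456582), Oas1g (chr5:120887614-120887643), Tgtp2 (chr11:49064263-49064292) and Tgtp1 (chr11:48992304-48992333). Gbp3 lies on the plus strand (chr3:142559992-142560021). In Gbp3, Oas1a, Oas1g and Isg15 the capitals run together because matches overlap, and the Oas1a and Oas1g windows end at the base before the transcription start. The windows of the neighbouring pair Tgtp1 and Tgtp2, interferon-inducible GTPases, differ at few letters.

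The NF-kB and inflammatory secretion list came next. Of its 54 tested members 40 rose, none fell and 14 did not pass, where 9.09% of all tested genes rose and 7.0% fell. The median log2 fold change was 1.49 against 0.00 for all tested genes. Leaving out any of the 6 libraries left 39 to 42 called. Of the 41 secreted products, adhesion molecules and enzymes 34 passed, and of the 13 subunits and feedback inhibitors 6.

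All 8 CXC chemokines tested rose. Cxcl1 and Cxcl5, which attract neutrophils, both rose, Cxcl1 from 30.9, 29.6 and 28.9 CPM to 318, 256 and 303 CPM and Cxcl5 from 55.8, 69.6 and 70.4 CPM to 539.9, 396 and 480.4 CPM. Their log2 fold changes were 3.30 ± 0.14 (SE, edgeR adjusted p = 6.45e-09) and 2.86 ± 0.21 (SE, edgeR adjusted p = 1.12e-06). Among the docetaxel libraries both were highest in library 1 and lowest in library 2. Cxcl10, which attracts T cells through CXCR3, went from 15.5, 19.9 and 19.7 CPM to 68.7, 81.7 and 86.7 CPM (log2 fold change 2.10 ± 0.14 (SE), edgeR adjusted p = 3.54e-07). Cxcl9, another CXCR3 ligand, came from 0.128 to 0.358 CPM and reached 3.15 to 4.98 CPM. All 4 CC and CX3C chemokines tested rose too. Ccl2, a monocyte attractant, was at 1.82, 1.66 and 1.91 CPM and 27.8, 32.6 and 30.8 CPM (log2 fold change 4.07 ± 0.24 (SE), edgeR adjusted p = 1.92e-07), Ccl20 at 0.767, 0.847 and 0.588 CPM and 10.8, 7.25 and 8.30 CPM (log2 fold change 3.58 ± 0.38 (SE), edgeR adjusted p = 2.58e-05) and Ccl5 at 22.6, 27.4 and 27.6 CPM and 80.4, 105 and 105 CPM (log2 fold change 1.90 ± 0.18 (SE), edgeR adjusted p = 7.57e-06).

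Of 13 cytokines and growth factors 8 rose. Il1a, an interleukin 1 that can act from the cell surface or after release, was at 11.54, 14.1 and 12.1 CPM with DMSO and 158, 99.3 and 119 CPM with docetaxel (log2 fold change 3.32 ± 0.15 (SE), edgeR adjusted p = 7.99e-09). Csf3, which encodes G-CSF, went from 31.7, 28.2 and 28.3 CPM to 243, 196 and 201 CPM (log2 fold change 2.86 ± 0.11 (SE), edgeR adjusted p = 1.14e-09), and Csf1, the macrophage growth factor, from 89.5, 101 and 95.3 CPM to 192, 221 and 208 CPM (log2 fold change 1.12 ± 0.11 (SE), edgeR adjusted p = 8.87e-06). These are factors that act on neutrophils and macrophages. Lif, a cytokine of the interleukin 6 family, rose from 70.7, 65.8 and 67.0 CPM to 116, 119 and 112 CPM (log2 fold change 0.77 ± 0.09 (SE), edgeR adjusted p = 9.19e-05). Il6 itself had 0 counts in each DMSO library and 3, 4 and 8 counts with docetaxel, too few for the test. Il1b did not pass, at 1.66, 2.15 and 0.999 CPM and 2.42, 2.01 and 3.05 CPM (edgeR adjusted p = 0.15), nor did Tslp or Il23a (edgeR adjusted p = 0.866 and 0.0977).

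Among the regulators, Nfkbiz, a nuclear co-activator of NF-kB target genes, rose most, from 52.0, 60.7 and 61.7 CPM to 119, 141 and 127 CPM (log2 fold change 1.15 ± 0.10 (SE), edgeR adjusted p = 3.46e-06). The inhibitor Nfkbia went from 74.3, 92.6 and 84.5 CPM to 111, 168 and 144 CPM (log2 fold change 0.75 ± 0.18 (SE), edgeR adjusted p = 0.0106) and the apoptosis inhibitor Birc3 from 15.1, 17.1 and 18.4 CPM to 30.2, 29.2 and 31.9 CPM (log2 fold change 0.85 ± 0.12 (SE), edgeR adjusted p = 0.000222). Rela, the main activating subunit, was at 111, 118 and 115 against 105, 120.4 and 121 CPM and did not pass (edgeR adjusted p = 0.976), and neither did Nfkb1 or Nfkb2 (edgeR adjusted p = 0.0702 and 0.582). This count moved with the method: 11 of the 13 passed with a GC content correction and 10 when the 6 libraries were fitted alone.

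Every one of the 7 adhesion molecules and enzymes rose. Beside Nos2 and Acod1, Ptgs2, the inducible cyclooxygenase COX-2, was at 235, 218 and 238 CPM and 677, 450.3 and 547 CPM (log2 fold change 1.28 ± 0.13 (SE), edgeR adjusted p = 2.43e-05), and Sod2, the mitochondrial superoxide dismutase, at 70.0, 61.1 and 63.5 CPM and 85.7, 89.1 and 85.2 CPM (log2 fold change 0.42 ± 0.08 (SE), edgeR adjusted p = 0.00236). Of 9 secreted defence proteins 7 rose. Lcn2, a siderophore-binding lipocalin, was at 95.1, 109 and 98.8 CPM with DMSO and 1023, 941 and 1041 CPM with docetaxel (log2 fold change 3.31 ± 0.12 (SE), edgeR adjusted p = 1.14e-09). Complement C3 went from 229, 306 and 255 CPM to 600.2, 894 and 782 CPM (log2 fold change 1.53 ± 0.23 (SE), edgeR adjusted p = 0.000501) and the protease inhibitor Slpi from 29.99, 25.5 and 25.1 CPM to 71.7, 82.1 and 72.5 CPM (log2 fold change 1.49 ± 0.16 (SE), edgeR adjusted p = 2.77e-05). None of these 5 genes overlapped between the groups, as was so for 37.7% of all tested genes.

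Upstream of the NF-kB list, the letters GGGA, any 2 bases and TTCC (on the other strand GGAA, any 2 bases and TCCC) were present in 8 of 39 members with a promoter entry (20.5%) and in 1.36% of all genes with an entry. The ISRE letters were in 2 of these 39, and the NF-kB letters in 3 of the 52 interferon members. Among called members with an entry and a mean of at least 5 CPM, the 3 with the largest changes were Acod1, Chil1 and Il1a. They have neither set of letters in the window. The 4 called members with a mean of at least 5 CPM and a match are shown, matches in capitals.
Cxcl1: ctgtactccGGGAATTTCCCtggcccggag
Cxcl10: agaggggagaGGGAAATTCCaagttcatgg
Csf1: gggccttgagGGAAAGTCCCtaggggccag
Nfkbia: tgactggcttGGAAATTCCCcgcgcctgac
Cxcl1 (chr5:90891165-90891194) lies on the plus strand. Cxcl10 (chr5:92349029-92349058), Csf1 (chr3:107760604-107760633) and Nfkbia (chr12:55492657-55492686) lie on the minus strand. The Cxcl1 capitals hold 2 overlapping matches, 1 on each strand.

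In antigen presentation 21 of 28 tested members passed, all higher, where 9.09% of all tested genes rose. The median log2 fold change was 0.79, against 0.00 for all tested genes. Leaving out any library left 16 to 22. Of 20 class I and processing genes 16 rose. B2m, the light chain of class I molecules, was at 324, 375 and 373 CPM with DMSO and 762, 689 and 782 CPM with docetaxel (log2 fold change 1.06 ± 0.14 (SE), edgeR adjusted p = 0.000227). Nlrc5, the transcriptional activator of class I genes, went from 1.82, 2.48 and 2.41 CPM to 9.66, 9.81 and 11.1 CPM (log2 fold change 2.18 ± 0.14 (SE), edgeR adjusted p = 2.78e-07), and Psmb8, a subunit of the immunoproteasome, from 10.3, 11.2 and 10.4 CPM to 20.3, 37.99 and 30.1 CPM (log2 fold change 1.47 ± 0.24 (SE), edgeR adjusted p = 0.00103). The heavy chains H2-K1 and H2-D1 rose by 0.84 and 0.76, with the caution that class I genes share sequence. Their docetaxel values were lowest in docetaxel library 1 but still above every DMSO value. Of 8 checkpoint ligands and co-signals 5 rose, or 3 with a replicate block. Cd274, which encodes PD-L1, was at 1.82, 2.12 and 3 CPM and 6.81, 7.77 and 7.61 CPM (log2 fold change 1.67 ± 0.20 (SE), edgeR adjusted p = 7.88e-05), and Lgals9, the galectin that binds TIM-3 (chr11:78962974-78984946), at 27.8, 39.7 and 36.2 CPM and 153, 166 and 177 CPM (log2 fold change 2.26 ± 0.17 (SE), edgeR adjusted p = 1.22e-06). Cd47, the signal that inhibits phagocytosis, did not pass (312, 358 and 362 against 452, 327 and 385 CPM, edgeR adjusted p = 0.454).

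Genes of glycolysis and of the hypoxia response fell together. Of 39 tested members 29 fell (7.0% of all tested genes fell), 2 rose and 8 did not pass. The median log2 fold change was -0.60, and without any 1 of the libraries 26 to 30 fell. Among 16 glycolytic enzymes 14 fell. Pgk1, phosphoglycerate kinase, was at 959, 1138 and 1106 CPM with DMSO and 478, 628 and 608 CPM with docetaxel (log2 fold change -0.90 ± 0.14 (SE), edgeR adjusted p = 0.000655). Aldoa, the main aldolase, went from 1791, 2113 and 2046 CPM to 877, 1183 and 1168 CPM (log2 fold change -0.88 ± 0.16 (SE), edgeR adjusted p = 0.00183), and Gpi1, glucose-6-phosphate isomerase, from 398, 446 and 429 CPM to 206, 260.4 and 249 CPM (log2 fold change -0.83 ± 0.11 (SE), edgeR adjusted p = 0.000225). In all 3 genes docetaxel library 1 was the lowest. Gapdh fell by 0.58 and Ldha, lactate dehydrogenase A, by 0.47 on the log2 scale. The hexokinases Hk1 and Hk2 were the members that did not pass (edgeR adjusted p = 0.165 and 0.526).

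Among transporters and regulators, Slc2a1, the glucose transporter GLUT1, went from 148, 161 and 161 CPM to 75.3, 82.3 and 82.7 CPM (log2 fold change -0.97 ± 0.10 (SE), edgeR adjusted p = 3.01e-05) and Pdk1, which holds pyruvate out of the citric acid cycle, from 171, 195 and 196 CPM to 77.2, 76.4 and 87.9 CPM (log2 fold change -1.22 ± 0.10 (SE), edgeR adjusted p = 3.1e-06). The oxygen sensors Egln1 and Egln3 fell by 0.47 and 1.06. The other calls in this role were increases. Pfkfb3, which makes the activator of phosphofructokinase, rose from 21.1, 32.1 and 27.7 CPM to 49.4, 55.9 and 60.4 CPM (log2 fold change 1.03 ± 0.19 (SE), edgeR adjusted p = 0.00195). Hif1a, the hypoxia-inducible factor whose protein is set mainly by its breakdown, rose from 139, 141 and 151 CPM to 242, 166 and 188 CPM (log2 fold change 0.47 ± 0.12 (SE), edgeR adjusted p = 0.0204), but not past the threshold without DMSO library 1, DMSO library 2 or docetaxel library 1. Of 14 other hypoxia targets 11 fell and none rose. Ndrg1 was at 382, 531 and 514 CPM and 169, 202 and 209 CPM (log2 fold change -1.30 ± 0.16 (SE), edgeR adjusted p = 0.000116), the mitophagy receptor Bnip3 at 47.8, 65.3 and 65.2 CPM and 22.2, 22.4 and 24.5 CPM (log2 fold change -1.37 ± 0.17 (SE), edgeR adjusted p = 0.000111), and Ddit4, an inhibitor of mTORC1, at 558, 551 and 555 CPM and 185, 349.5 and 262 CPM (log2 fold change -1.06 ± 0.23 (SE), edgeR adjusted p = 0.00686). Vegfa did not pass (39.1, 45.2 and 43.4 against 32.6, 43.0 and 38.2 CPM, edgeR adjusted p = 0.318).

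**Figure D3:**
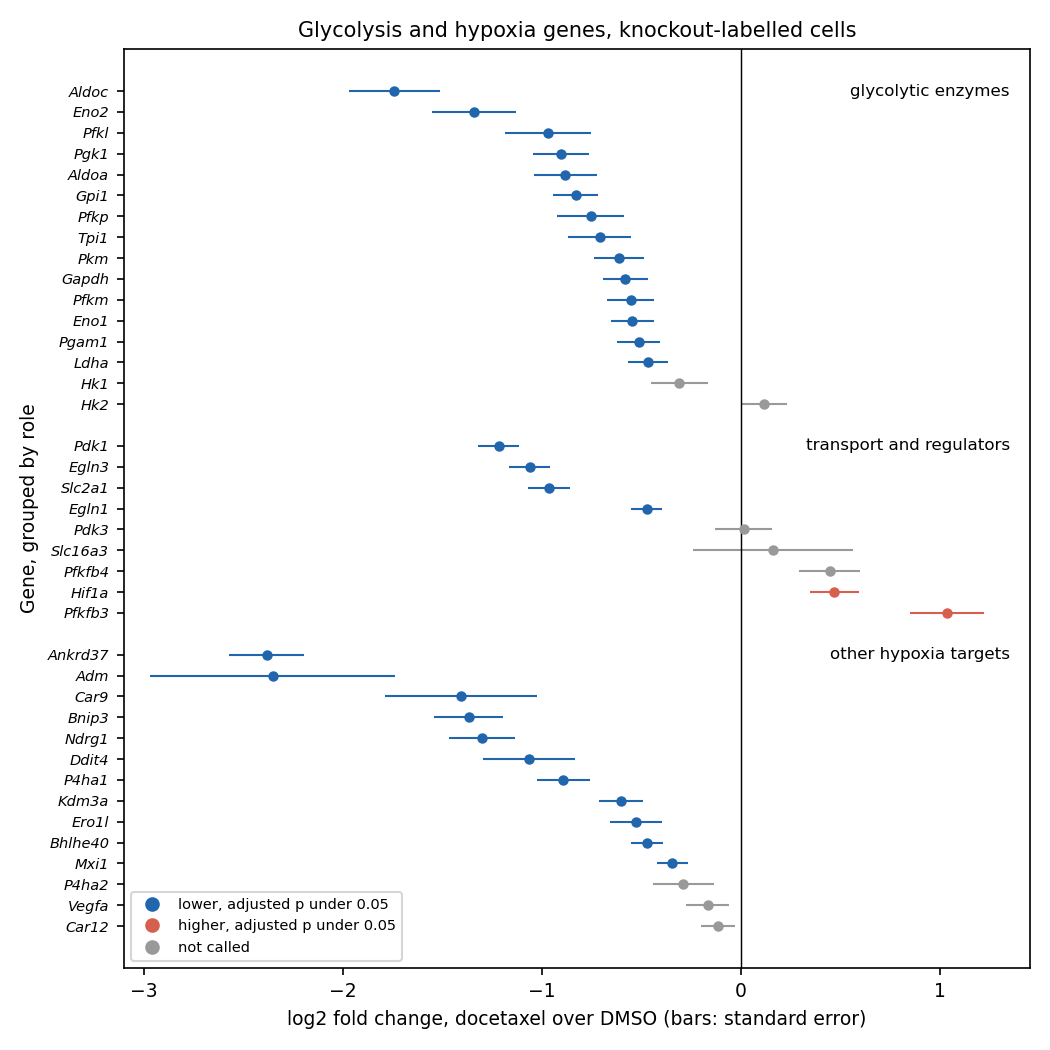
Log2 fold change of docetaxel over DMSO for the 39 tested genes of glycolysis and hypoxia, grouped by role, with standard errors as bars and calls by colour. Points left of 0 fell, and 14 of 16 enzymes and 11 of 14 other targets are in blue, while Pfkfb3 and Hif1a are on the right in red.

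Of 34 tubulins and microtubule regulators, the genes closest to the drug's target, 5 rose and 1 fell, with a median log2 fold change of 0.11. Of all tested genes 16.1% were called in either direction, so the share of the whole list is near the background. Its roles differed. Among the 11 alpha and beta tubulins 4 rose and 0 fell (median 0.40), where 9.09% of all tested genes rose. That 4 ran from 2 to 6 over the alternatives. Among the 19 associated proteins and cofactors 1 rose and 1 fell. Tubb5, the beta tubulin with the most counts, was at 2649, 2719 and 2746 against 2475, 2665 and 2688 CPM (edgeR adjusted p = 0.75). Tubb6 rose from 188, 139 and 162 CPM to 222, 262 and 246 CPM (log2 fold change 0.58 ± 0.13 (SE), edgeR adjusted p = 0.00705) and Tuba4a from 126, 103 and 116 CPM to 154, 173 and 162 CPM (log2 fold change 0.50 ± 0.09 (SE), edgeR adjusted p = 0.00266). Mapt, which encodes the microtubule-associated protein tau, fell from 13.0, 15.2 and 15.6 CPM to 6.46, 8.84 and 6.89 CPM (log2 fold change -0.98 ± 0.16 (SE), edgeR adjusted p = 0.00111). The 5 increases became 2 without DMSO library 2 or docetaxel library 3, 3 without DMSO library 3 or docetaxel library 1, and 3 with upper-quartile scaling. Among 8 drug efflux pumps 1 rose and 2 fell, or 1 fell without DMSO library 2 or 3 or docetaxel library 1. Abcg2 rose from 5.66, 5.34 and 4.64 CPM to 11.46, 8.29 and 12.3 CPM (log2 fold change 1.03 ± 0.19 (SE), edgeR adjusted p = 0.00234) and Abcc3 fell from 67.2, 76.8 and 72.5 CPM to 48.1, 51.7 and 55.0 CPM (log2 fold change -0.48 ± 0.10 (SE), edgeR adjusted p = 0.0056). Abcb1b, a P-glycoprotein gene, did not pass (19.9, 17.7 and 19.2 against 24.5, 19.1 and 20.9 CPM, edgeR adjusted p = 0.256).

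Cell cycle genes were mostly uncalled at harvest. Of 42 mitotic genes 2 rose (median log2 fold change 0.11), and of 46 DNA replication genes 2 rose (median 0.13). Over all tested genes 9.09% rose and 7.0% fell. The mitotic count was 1 without DMSO library 2 or docetaxel library 3 and 5 without docetaxel library 2. Pttg1, securin, went from 42.7, 45.7 and 43.4 CPM to 59.7, 58.0 and 61.5 CPM (log2 fold change 0.44 ± 0.10 (SE), edgeR adjusted p = 0.0109). Orc1, a subunit of the origin recognition complex, rose from 7.87, 7.78 and 7.52 CPM to 16.6, 12.5 and 14.2 CPM (log2 fold change 0.90 ± 0.20 (SE), edgeR adjusted p = 0.00655) and Dbf4, which activates the CDC7 kinase, from 86.2, 86.7 and 92.5 CPM to 128, 106 and 116 CPM (log2 fold change 0.40 ± 0.08 (SE), edgeR adjusted p = 0.00547). Mki67, the proliferation marker, was at 601, 603 and 616 against 571, 551 and 529.6 CPM (edgeR adjusted p = 0.391), and Cdkn1a, the p21 inhibitor of cyclin-dependent kinases, at 12.1, 11.01 and 12.3 against 19.1, 13.6 and 13.7 CPM (edgeR adjusted p = 0.257). Of 18 G1 regulators 6 rose and 1 fell. Ccne1, cyclin E1, was at 6.36, 4.95 and 5.05 CPM and 13.0, 10.2 and 11.51 CPM (log2 fold change 1.09 ± 0.17 (SE), edgeR adjusted p = 0.000629) and Ccnd2, cyclin D2, at 91.8, 84.2 and 89.4 CPM and 132, 127 and 129.6 CPM (log2 fold change 0.55 ± 0.08 (SE), edgeR adjusted p = 0.000286). The 6 became 3 without DMSO library 2 or DMSO library 3. The lower call was lost without either of these or docetaxel library 3, and there were 2 without docetaxel library 1.

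The replication-dependent histones fell where they were called: 16 of 28, with a median of -0.42, where 7.0% of all tested genes fell. Hist1h3e was at 893, 836 and 817 CPM with DMSO and 454, 539.5 and 514 CPM with docetaxel (log2 fold change -0.76 ± 0.10 (SE), edgeR adjusted p = 0.000261), and the linker histone Hist1h1c at 576, 615 and 599.8 CPM and 337, 421 and 395 CPM (log2 fold change -0.64 ± 0.12 (SE), edgeR adjusted p = 0.00254). Histone genes share sequence and their transcripts lack poly(A) tails but are kept in libraries made by ribosomal RNA removal. The count fell to 9 without DMSO library 1, DMSO library 3, docetaxel library 1 or docetaxel library 3, and to 10 with a replicate block. Cytosolic ribosomal protein genes also fell where called, 18 of 50, with a median of -0.34. Rps4x went from 995, 1020.3 and 1026 CPM to 747, 731 and 774 CPM (log2 fold change -0.43 ± 0.07 (SE), edgeR adjusted p = 0.00145) and Rpl3 from 722, 755 and 723 CPM to 431, 538 and 494 CPM (log2 fold change -0.59 ± 0.12 (SE), edgeR adjusted p = 0.00436). That count was unstable: 4 to 7 without DMSO library 1, 2 or 3 or docetaxel library 1 or 3, and up to 31 under other settings. The summed share of ribosomal protein genes was 5.79% to 6.13% of counts with DMSO and 4.50% to 4.98% with docetaxel.

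Of 20 members of the p53 list 5 rose and none fell, and of 38 cell death genes 10 rose and 1 fell. The shares over all tested genes were 9.09% higher and 7.0% lower. Fas, a death receptor on both lists, was at 5.34, 5.34 and 4.73 CPM with DMSO and 16.9, 17.9 and 17.6 CPM with docetaxel (log2 fold change 1.77 ± 0.14 (SE), edgeR adjusted p = 1.87e-06). Bid, a BH3-only protein that links death receptors to mitochondria, went from 38.5, 33.2 and 36.0 CPM to 65.8, 69.4 and 68.4 CPM (log2 fold change 0.92 ± 0.09 (SE), edgeR adjusted p = 1.02e-05), and Bak1, a pore-forming BCL2 relative, from 58.8, 58.0 and 56.6 CPM to 79.5, 80.04 and 79.0 CPM (log2 fold change 0.46 ± 0.08 (SE), edgeR adjusted p = 0.00138). Casp8, the initiator caspase, rose from 51.5, 51.8 and 52.7 CPM to 74.8, 60.8 and 66.7 CPM (log2 fold change 0.38 ± 0.09 (SE), edgeR adjusted p = 0.00931). The groups were apart for each of them, as for 37.7% of all tested genes. Without DMSO library 2 or 3 the p53 list had 1 call, without docetaxel library 3 it had 2, and without DMSO library 1 or docetaxel library 1 it had 3.

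The counts of the next lists stand beside 9.09% of all tested genes rising and 7.0% falling. In the unfolded protein response 9 of 25 members rose and 1 fell (median 0.22), the decrease being lost without DMSO library 2 or 3 or docetaxel library 1 or 3. Hspa5, the chaperone BiP, was at 579, 526 and 551 CPM and 816, 837 and 809.8 CPM (log2 fold change 0.57 ± 0.10 (SE), edgeR adjusted p = 0.00192), Hyou1, another chaperone of the endoplasmic reticulum, at 137, 114 and 117 CPM and 207, 215 and 208 CPM (log2 fold change 0.78 ± 0.09 (SE), edgeR adjusted p = 6.13e-05), and Manf, a secreted factor of that compartment, at 59.8, 51.4 and 52.1 CPM and 94.9, 86.7 and 83.4 CPM (log2 fold change 0.70 ± 0.09 (SE), edgeR adjusted p = 0.000157). Increases were called in 9 of 29 immediate-early and heat-shock genes, and decreases in 2, or in 1 without DMSO library 1 or 3 or docetaxel library 1 or 3. Fos and Atf3, transcription factors of the AP-1 and ATF families, rose, Fos from 6.20, 8.14 and 7.73 CPM to 18.2, 21.1 and 19.8 CPM and Atf3 from 6.23, 5.96 and 6.61 CPM to 18.5, 17.8 and 19.3 CPM (edgeR adjusted p = 2.84e-05 and 1.46e-06), and Egr3, a zinc-finger factor, fell from 5.24, 4.89 and 4.67 CPM to 2.08, 1.58 and 1.76 CPM (log2 fold change -1.44 ± 0.19 (SE), edgeR adjusted p = 0.000178). Of 18 targets of NRF2, the oxidative stress factor, 4 rose, or 2 without DMSO library 2. Of 30 lysosome and autophagy genes 5 rose, Npc1, a cholesterol transporter of the lysosome, from 18.4, 19.4 and 17.8 CPM to 27.0, 26.0 and 28.2 CPM (log2 fold change 0.55 ± 0.10 (SE), edgeR adjusted p = 0.00234). Among 29 genes of cholesterol and fatty acid synthesis none rose and 2 fell, or 2 rose without docetaxel library 2 and 1 fell without DMSO library 3. The 2 decreases were a share near that of all tested genes. Of the decreases, Scd2, a fatty acid desaturase, went from 1758, 1619 and 1863 CPM to 1283, 1071 and 1166 CPM (log2 fold change -0.57 ± 0.12 (SE), edgeR adjusted p = 0.00428). Of 47 respiratory chain genes 2 rose, none without DMSO library 2, DMSO library 3 or docetaxel library 3, and 6 without docetaxel library 2. The share of counts from mitochondrial genes was 1.16%, 0.525% and 0.782% in the docetaxel libraries and 0.519% to 0.596% in the DMSO libraries.

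Epithelial genes moved in both directions, with 6 of 42 higher and 8 lower, against 9.09% and 7.0% of all tested genes. Besides Ehf and Cldn1, Krt16 and Krt17, keratins of stressed and wounded epithelia, rose, Krt16 from 3.17, 4.17 and 3.88 CPM to 14.5, 23.6 and 17.7 CPM and Krt17 from 1.12, 1.21 and 0.881 CPM to 6.33, 10.3 and 7.83 CPM (edgeR adjusted p = 1.46e-06 and 1.64e-06). Krt19, a simple-epithelial keratin, fell from 359, 403 and 362 CPM to 163, 259 and 224 CPM (log2 fold change -0.80 ± 0.17 (SE), edgeR adjusted p = 0.00607), and Jup, plakoglobin of the cell junction, from 537, 546 and 545 CPM to 377, 439 and 413 CPM (log2 fold change -0.40 ± 0.09 (SE), edgeR adjusted p = 0.00627). The lower count was 5 without DMSO library 2, DMSO library 3 or docetaxel library 1. On the mesenchymal list 4 of 13 fell and 1 rose: Vim, vimentin, went from 365, 361 and 374 CPM to 197, 236 and 221 CPM (log2 fold change -0.75 ± 0.13 (SE), edgeR adjusted p = 0.00133), while Zeb2, a repressor of epithelial genes, rose from 11.2, 10.2 and 11.2 CPM to 18.6, 15.2 and 16.01 CPM (log2 fold change 0.61 ± 0.13 (SE), edgeR adjusted p = 0.00463).

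Of 59 integrin and matrix genes 14 fell and 8 rose, where 7.0% of all tested genes fell and 9.09% rose. Itgb4, the integrin beta 4 of hemidesmosomes, was at 283, 303 and 286 CPM with DMSO and 157, 197 and 181 CPM with docetaxel (log2 fold change -0.71 ± 0.10 (SE), edgeR adjusted p = 0.000327). Lama5, a laminin chain of the basement membrane, fell from 1676, 1924 and 1801 CPM to 936, 1216 and 1106 CPM (log2 fold change -0.73 ± 0.10 (SE), edgeR adjusted p = 0.000358). Fn1, fibronectin, went from 3198, 3350.4 and 3349 CPM to 2224, 2479 and 2391 CPM (log2 fold change -0.48 ± 0.09 (SE), edgeR adjusted p = 0.00244). The collagenase Mmp13 rose from 3.04, 3.39 and 3.06 CPM to 21.4, 16.7 and 19.7 CPM (log2 fold change 2.61 ± 0.17 (SE), edgeR adjusted p = 3.69e-07) and the stromelysin Mmp10 from 7.002, 4.53 and 5.70 CPM to 19.5, 13.4 and 13.97 CPM (log2 fold change 1.44 ± 0.22 (SE), edgeR adjusted p = 0.000646). Matrix and basement membrane chains thus made most of the lower calls and proteases and their inhibitors most of the higher ones, with 11 of 25 collagen, laminin and glycoprotein genes lower and 6 of 17 protease and inhibitor genes higher. The 5 collagen calls became 2 or 3 without DMSO library 1, 2 or 3 or docetaxel library 1. The count of lower genes was 8 without DMSO library 2 and 9 without docetaxel library 1. In TGF-beta signalling 6 of 24 rose, among them the receptors Tgfbr2 (106, 108 and 110.1 to 143, 144 and 146 CPM, edgeR adjusted p = 0.00126) and Tgfbr3 (2.46, 4.20 and 3.35 to 10.4, 13.6 and 10.5 CPM, edgeR adjusted p = 6.22e-05).

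The response was then set beside that of the wild-type cells, which share no libraries with it. In wild-type cells 2259 genes rose (14.5%) and 2147 fell (13.8%). Genes called higher in both numbered 1004, which is 71.1% of the calls in knockout-labelled cells and 44.4% of those in wild type, and 798 were lower in both (73.4% and 37.2%). Opposite calls were rare, with 11 genes higher here and lower in wild type and 2 the other way. A gene called in one genotype alone is not shown to differ, so the difference of the responses was tested itself. It passed in 17 of 15538 genes (0.109%): 14 with the knockout-labelled response above the wild-type response (0.0901%) and 3 below (0.0193%). That number was unstable, with 2 to 210 above and 0 to 221 below when 1 of the 12 libraries was left out. The largest counts came without wild-type DMSO library 1. There were 39 above without wild-type DMSO library 3, 22 without knockout-labelled docetaxel library 2, and 3 to 5 without any wild-type docetaxel library or knockout-labelled DMSO library 1 or 2. Without knockout-labelled DMSO library 3 or docetaxel library 3 there were 2 above and none below.

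In the interferon list 69 of 71 members had the larger response in knockout-labelled cells (49.9% of all tested genes did), with a median of 1.68 against 0.78 in wild type, and 3 passed the test of the difference. Ifi27, an interferon-stimulated gene, went from 73.9, 90.6 and 78.6 CPM to 181, 197 and 185 CPM in knockout-labelled cells (log2 fold change 1.21 ± 0.09 (SE), edgeR adjusted p = 9.09e-07). In wild-type cells it was at 155, 155 and 173 CPM with DMSO and 137, 144 and 140.4 CPM with docetaxel, and the difference of the log2 fold changes was 1.403 ± 0.12 (SE, edgeR adjusted p = 0.000235). Its difference stayed called in each alternative tried. Oas2 started lower in knockout-labelled than in wild-type DMSO libraries (14.4, 27.8 and 27.7 CPM in the latter) and its docetaxel values overlapped those of wild type (59.5, 83.5 and 64.2 CPM), with a difference of 1.78 ± 0.31 (SE, edgeR adjusted p = 0.0484). Sp100 was at 33.5, 45.8 and 42.4 against 75.02, 97.0 and 78.8 CPM in wild type, with a difference of 1.22 ± 0.20 (SE, edgeR adjusted p = 0.0285). A larger response was also called for Lgals9 and Nlrc5 of the antigen presentation list, with differences of 1.59 ± 0.23 (SE) and 1.09 ± 0.18 (SE). Lgals9 was at 119, 193 and 149 against 219, 274 and 241 CPM in wild type. The calls other than that of Ifi27 were lost when 1 library was left out: that of Lgals9 without knockout-labelled DMSO library 1 or 3, docetaxel library 3 or wild-type docetaxel library 1 or 3. That of Sp100 was lost without any of these, knockout-labelled DMSO library 2 or wild-type DMSO library 2, and those of Nlrc5 and Oas2 also without wild-type docetaxel library 2, Oas2 further without knockout-labelled docetaxel library 2. All 5 genes were lower in each knockout-labelled DMSO library than in each wild-type DMSO library.

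The summed interferon list showed that order too. It was 3738 to 4789 CPM in wild-type DMSO and 6491 to 8188 CPM in wild-type docetaxel libraries, so that the knockout-labelled docetaxel libraries lay between the wild-type groups. Whether the lower starting level has a part in the larger response was not tested.

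**Figure D4:**
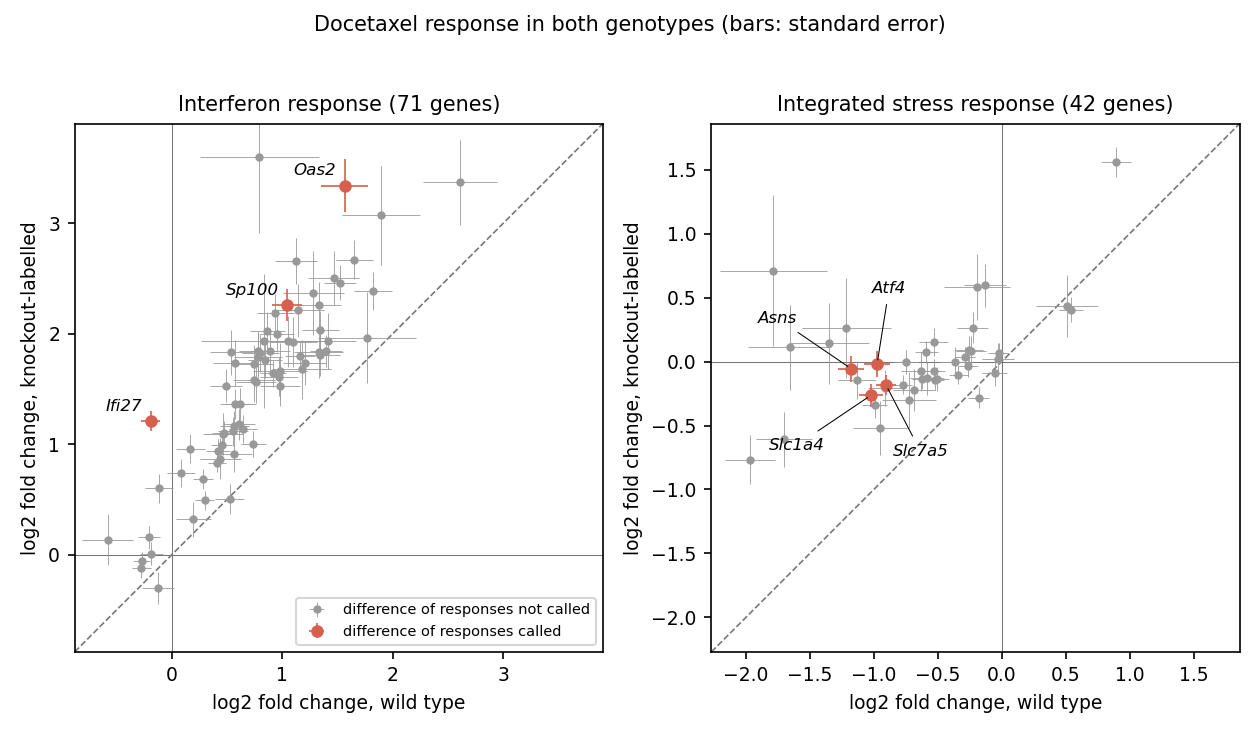
Log2 fold change with docetaxel in knockout-labelled cells (vertical) against that in wild-type cells (horizontal) for the 71 interferon and 42 integrated stress response genes, with standard errors as bars and a dashed line where both are equal. In the interferon panel 69 of 71 points lie above the line, and in the stress panel 38 of 42, while red marks the 3 and 4 genes whose difference passed the test.

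In the integrated stress response, 38 of 42 members likewise had the higher log2 fold change in knockout-labelled cells, and 4 passed the test of the difference. This pathway raises ATF4, which switches on genes for the synthesis, uptake and tRNA charging of amino acids. In knockout-labelled cells 3 of its 42 members rose and 3 fell (median -0.05), while in wild-type cells 2 rose and 30 fell (median -0.59). Of all tested genes 9.09% rose and 7.0% fell in knockout-labelled cells, and 14.5% rose and 13.8% fell in wild type. The knockout-labelled counts are thus near the shares of all tested genes. Without DMSO library 2 the knockout-labelled counts were 1 higher and 0 lower, without DMSO library 3 they were 1 and 1. Without docetaxel library 1 none was lower, and without DMSO library 1 or docetaxel library 3 the lower count was 1. Atf4 itself (chr15:80255184-80257541) was at 150.5, 134 and 127 CPM with DMSO and 119.5, 150.4 and 136 CPM with docetaxel in knockout-labelled cells (log2 fold change -0.02 ± 0.10 (SE), edgeR adjusted p = 0.924). The wild-type libraries were at 253, 269.6 and 305 CPM and 135, 136 and 149.6 CPM, with a difference of responses of 0.96 ± 0.14 (SE, edgeR adjusted p = 0.022). Asns, asparagine synthetase, showed the same order: 82.0, 86.1 and 78.7 CPM and then 80.7, 75.7 and 80.9 CPM in knockout-labelled cells, and 138, 187 and 165 CPM and then 66.5, 73.4 and 76.6 CPM in wild type (difference 1.12 ± 0.14, SE, edgeR adjusted p = 0.00856). The amino acid transporters Slc7a5 and Slc1a4 passed as well, with differences of 0.72 ± 0.12 (SE) and 0.76 ± 0.13 (SE). The call for Asns was lost without knockout-labelled DMSO library 3 or docetaxel library 3. That for Atf4 was lost without either of these, knockout-labelled DMSO library 2 or any wild-type docetaxel library, and Slc7a5 and Slc1a4 lost theirs without any of those 6 or knockout-labelled DMSO library 1, Slc1a4 also without wild-type DMSO library 2 or knockout-labelled docetaxel library 1 or 2. In all 4 genes the wild-type DMSO libraries stood above the other 9 libraries. The aminoacyl-tRNA synthetases had 1 of 12 higher in knockout-labelled cells and 8 of 12 lower in wild type, and none passed the test of the difference.

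**Figure D5:**
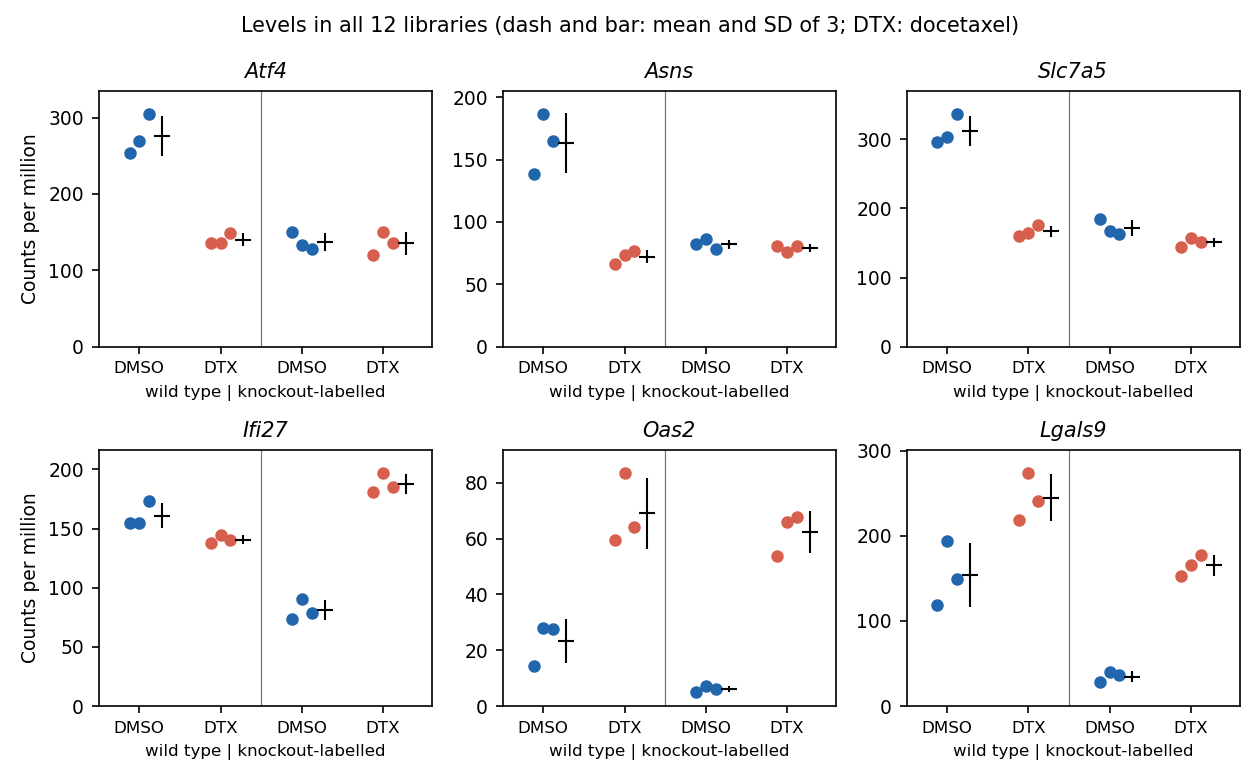
CPM of 6 genes in all 12 libraries, DMSO in blue and docetaxel in red, wild type left of the line and knockout-labelled right of it, with each group's mean and SD. For Atf4, Asns and Slc7a5 the wild-type DMSO libraries stand above all others. For Ifi27, Oas2 and Lgals9 the knockout-labelled DMSO libraries are the lowest group.

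For DNA replication and lipid synthesis the numbers of calls were unequal. In wild-type cells 26 of 46 replication genes rose (median 0.42) against 2 of 46 in knockout-labelled cells (median 0.13), and 12 of 29 genes of cholesterol and fatty acid synthesis rose against none. Wild-type DMSO library 1, whose description names the knockout, stood apart here: its summed replication level was 3767 CPM against 2691 and 2509 CPM in the other wild-type DMSO libraries and 3849 to 3941 CPM with docetaxel. Its summed lipid synthesis level was 6627 CPM against 5296 and 4529.6 CPM, and 6088 to 6593 CPM with docetaxel. In knockout-labelled cells the replication sums were 4047, 3590 and 3739 CPM with DMSO and 3861, 3912 and 3867 CPM with docetaxel. Their lipid synthesis sums were 6835, 5855 and 6579 CPM and 6145, 5644 and 5778 CPM. Wild-type DMSO library 1 thus lay within the range of the knockout-labelled DMSO libraries for both sums. The order of the responses was one-sided here too, in the other direction from the interferon and integrated stress lists. The knockout-labelled log2 fold change was above the wild-type one in 5 of 46 replication and 1 of 29 lipid synthesis genes, against 49.9% of all tested genes. No member of either list passed the test of the difference. At the level of single genes, Mcm2, a subunit of the replicative helicase, had log2 fold changes of 0.22 ± 0.17 (SE) in knockout-labelled and 0.81 ± 0.17 (SE) in wild-type cells (edgeR adjusted p of the difference = 0.404). The NF-kB list had medians of 1.49 and 1.16 and no called difference other than Ltf. This gene, which encodes lactoferrin, rose in both, from 18.1, 19.6 and 16.9 CPM to 49.3, 54.7 and 48.7 CPM in knockout-labelled and from 3.79, 1.79 and 2.06 CPM to 20.3, 21.6 and 20.7 CPM in wild-type cells, with a difference of -1.55 ± 0.25 (SE, edgeR adjusted p = 0.0285). Clu, the secreted chaperone clusterin, fell in knockout-labelled cells (542, 463 and 476 to 363, 337 and 322 CPM) and rose in wild-type cells (301, 215 and 225 to 419, 372 and 372 CPM), a difference of -1.19 ± 0.17 (SE, edgeR adjusted p = 0.0165). Both calls of a difference were lost without knockout-labelled DMSO library 1 or 3, docetaxel library 3 or wild-type docetaxel library 1 or 3, and that of Ltf also without knockout-labelled DMSO library 2 or wild-type docetaxel library 2.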

How the data were processed

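RNA from 12 cultures was depleted of ribosomal RNA, primed with random hexamers and sequenced as pairs of 150-base reads, per the labels' protocols. The authors deposited 1 table of read counts per gene symbol, whole numbers that are not normalized. Reads were aligned with STAR 2.5.1a and counted with featureCounts 1.4.6-p5, per the submitters' processing notes. The genome build, annotation, use of strand and treatment of reads with several matches are not stated in the sources used here. Near-identical genes (histones, tubulins, ribosomal proteins, class I genes, Oas1a and Oas1g, Tgtp1 and Tgtp2) and overlapping genes are therefore uncertain. Of 40757 entries, 351 that repeated another in symbol and all counts (0.907% of counts) were dropped. Symbols were matched to GENCODE M21 (GRCm38) for gene type, position and GC content.

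All 12 libraries entered 1 quasi-likelihood model in edgeR 4.0.16 (R 4.3.3) with 4 groups, TMM scaling and edgeR's filter on low counts, which left 15538 genes. The contrasts were docetaxel against DMSO in each genotype and the difference of the 2 responses, with p-values two-sided and adjusted by Benjamini-Hochberg over all tested genes. A called gene has an adjusted p under 0.05. CPM are counts-per-million of the TMM-scaled library and compare libraries, not genes of different length. The p-values rest on the spread between cultures within groups, estimated jointly over the 4 groups of 3 cultures, wild-type groups included. Which cultures came from separate passages is not stated. Alternatives were other scalings and filters, limma-voom 3.58.1, DESeq2 1.42.0, a GC content correction, a replicate block, and leaving out each library.

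The members and lists were chosen with earlier results of these data known. Genes are named by a rule: the integrin beta 3 genes, the 12 largest changes in each direction, up to 4 called members per role of each list with at least 5 CPM, and called differences between genotypes. Some ligands, receptors, regulators and enzymes are named whatever their test gave. The promoter windows, the genes outside the lists and a few further list members given as examples (such as Gapdh, Cgas and Egr3) were picked after their values were seen. Promoter sequences are from RefSeq (GRCm38.p6).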

Additional observations from a re-analysis of the deposited data

Results flagged for a closer look

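For 17 genes the response to docetaxel differed between the knockout-labelled and the wild-type cells, by edgeR's test of the difference itself over 15538 genes. Each value is the knockout-labelled log2 fold change minus the wild-type one. On the interferon and antigen presentation lists these were Ifi27 (1.4), Oas2 (1.78), Sp100 (1.22), Lgals9 (1.59) and Nlrc5 (1.09). On the integrated stress response list they were Atf4 (0.955), Asns (1.12), Slc7a5 (0.721) and Slc1a4 (0.759). The differences below 0 were Ltf (-1.55), Clu (-1.19) and Nlrp10 (-1.8). Nlrp10, a NOD-like receptor, was at 4.67, 4.62 and 3.55 CPM with DMSO and 3.90, 3.77 and 3.30 CPM with docetaxel in knockout-labelled cells and at 0.695, 0.757 and 0.608 against 2, 2.53 and 1.65 CPM in wild-type cells.

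The largest differences belonged to predicted genes, Gm25911 (7.42), Gm24270 (6.29), Gm23935 (5.79) and Gm24245 (2.75), and to Ppp1r14a (2.7), which encodes an inhibitor of myosin phosphatase. Gm25911 was at 13.7, 27.2 and 19.4 CPM with DMSO and 300.5, 93.4 and 468 CPM with docetaxel in knockout-labelled cells, and at 477, 702 and 51.5 against 36.4, 22.4 and 43.7 CPM in wild-type cells. Ppp1r14a was at 21.1, 30.1 and 28.2 against 80.8, 40.8 and 81.5 CPM, and at 73.8, 124 and 48.7 against 29.3, 22 and 45.2 CPM. Docetaxel library 2 had the lowest level of both genes in its group. The share of all counts that Gm23935 took ran the same way within that group, at 0.856%, 0.293% and 1.51%, and was 1.62%, 3.98% and 0.435% in the wild-type DMSO libraries. With Gm23935 and Gm26917 left out of the fit, 10 genes were called above instead of 14, and 3 below as before. Gm23935 itself is 1 of the genes removed. Its part in the other 4 differences was not tested. The calls of Ifi27 and Gm24270 held in each of the 22 alternatives, and each of the other 15 was lost in at least 2.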

How the results depend on the processing

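Docetaxel's effect in knockout-labelled cells gave 1412 higher and 1087 lower genes, and 1162 to 1841 and 918 to 1429 under settings that kept all libraries. Leaving out 1 library gave 800 to 1576 higher, 511 to 1163 lower, 406 to 522 at least 2-fold higher and 73 to 154 at least 2-fold lower, the 73 without DMSO library 2 or docetaxel library 1. DESeq2 called 1776 higher and 1400 lower, limma-voom 1419 and 1176. With Gm23935 and Gm26917 left out, 1413 were higher and 1091 lower, and the difference between genotypes was called in 10 genes above and 3 below. The replicate numbers were not found to pair the libraries: same-numbered DMSO and docetaxel libraries deviated from their group means with r of -0.08, 0.18 and 0.17 over 10412 genes, and number 1 did not correlate best with itself. With a replicate block 1162 genes were higher and 918 lower, and the difference between genotypes was called in 19 genes above and 3 below. The difference between genotypes was the least stable count: 257 above and 164 below with no filter on low counts, 126 and 39 with DESeq2, 33 and 5 with the GC content correction and 6 above with limma-voom. Leaving out 1 library gave 2 to 210 above and 0 to 221 below. The cause was not tested.

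Of 178 counts over lists and roles, 85 stayed within 1.5 times in each alternative, among them the whole interferon list, the whole NF-kB list and the whole antigen presentation list. The 178 include counts that were 0 in the main fit and in every alternative, such as interferon-inducible GTPases called lower. The 85 therefore do not measure how stable the counts above 0 were. Other counts that moved as far were: ribosome genes lower, 29 with upper-quartile scaling or DESeq2, 32 with no filter, 31 with the 6 libraries alone and 12 with the block. Replication genes higher were 9 with no filter and 5 with the 6 libraries alone, mitotic genes 5 with DESeq2, respiratory chain genes 11 with no filter, lysosome genes 8 with no filter, GC correction or DESeq2, and epithelial genes 10 with GC correction. The p53 list had 3 with the block.

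Of 228 called genes named in the text or picked by its rule, 180 stayed called in each of 17 alternatives and 48 lost the call in at least 1. The sign of the log2 fold change turned for 8 uncalled genes: to 0.0733 (Atf4), 0.00324 (Itgb3), 0.00407 (Cdh1) and 0.00224 (Tubb5) with GC correction, and to -0.0329 (Rela) and -0.0297 (Tmem173) with upper-quartile scaling. Over the single libraries left out, the values ran from -0.0949 to 0.063 for Atf4, -0.031 to 0.0708 for Rela, -0.0489 to 0.107 for Tmem173, -0.405 to 0.128 for Tslp, -0.764 to 0.0728 for Itga2b and -0.0682 to 0.00892 for Cdh1. Depth limits genes with few reads: 3242 tested genes had a mean under 1 CPM, of which 6.20% were called higher and 0.956% lower.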

Other observations

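Genes outside the lists, chosen after their values were seen, moved with docetaxel in knockout-labelled cells as well. Ly6a, the surface antigen SCA-1, was at 8.73, 11.9 and 10.4 CPM with DMSO and 57.9, 84.8 and 87.9 CPM with docetaxel (log2 fold change 2.89 ± 0.25 (SE), edgeR adjusted p = 4.12e-06). Its relative Ly6e went from 88.5, 123 and 112 CPM to 402, 513 and 523 CPM (log2 fold change 2.16 ± 0.16 (SE), edgeR adjusted p = 1.22e-06). Both were lowest in the first library of each group. Cebpd, a C/EBP transcription factor of acute inflammation, rose from 3.04, 3.06 and 2.88 CPM to 18.3, 23.3 and 19.5 CPM (log2 fold change 2.77 ± 0.17 (SE), edgeR adjusted p = 2.62e-07), and Tlr2, a receptor for bacterial lipopeptides, from 7.13, 10.1 and 8.49 CPM to 31.4, 29.6 and 37.7 CPM (log2 fold change 1.94 ± 0.16 (SE), edgeR adjusted p = 1.87e-06). Zc3h12a, the RNase regnase-1 that degrades inflammatory transcripts, rose from 20.8, 25.4 and 24.3 CPM to 53.3, 62.6 and 60.9 CPM (log2 fold change 1.32 ± 0.11 (SE), edgeR adjusted p = 3.24e-06). Serpinb9, an inhibitor of granzyme B, rose from 16.3, 16.2 and 17.7 CPM to 45.9, 33.4 and 40.6 CPM (log2 fold change 1.26 ± 0.17 (SE), edgeR adjusted p = 0.000227). The groups did not overlap in any of these 6 genes, picked with their values known, and 37.7% of all tested genes had no overlap either.

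On the other side, Porcn, the acyltransferase that Wnt proteins need for secretion, fell from 25.5, 25.7 and 23.3 CPM to 10.2, 9.35 and 10.2 CPM (log2 fold change -1.32 ± 0.10 (SE), edgeR adjusted p = 1.47e-06). Espn, an actin-bundling protein, fell from 117, 153 and 147 CPM to 49.9, 64.7 and 59.6 CPM (log2 fold change -1.26 ± 0.16 (SE), edgeR adjusted p = 9.72e-05), and Jak3, a kinase of cytokine receptors, from 41.2, 43.8 and 40.5 CPM to 16.2, 24.95 and 22.2 CPM (log2 fold change -0.99 ± 0.14 (SE), edgeR adjusted p = 0.00027). Bmp7, a bone morphogenetic protein, fell from 16.7, 15.4 and 17.9 CPM to 8.27, 9.15 and 7.86 CPM (log2 fold change -0.98 ± 0.13 (SE), edgeR adjusted p = 0.000146), and the metallothionein Mt1 from 233, 217 and 240.4 CPM to 131, 122 and 133 CPM (log2 fold change -0.84 ± 0.15 (SE), edgeR adjusted p = 0.00165). In wild-type cells the log2 fold changes were -1.24 for Porcn, -1.64 for Espn, -0.98 for Jak3, -0.46 for Bmp7 and -0.38 for Mt1, and none of these 5 differences between the genotypes passed the test.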
